A study of Mus musculus with 18 samples.

Results

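Described here are 9 genes that encode G protein-coupled receptors of immune cells, Gpr84, Gpr18, Gpr183, Gpr65, Gpr132, Hcar2, Ptafr, Fpr1 and Fpr2, out of 36172 genes in the deposited table. They were found by gene symbol for 8 of the 9, and Hcar2 by its Entrez ID, since the table lists it under its older symbol Niacr1. The set was selected on measured values: Gpr84 is a microglial marker of the study and Gpr18 was singled out for its level after LPS in the microglial fraction, so values from that contrast are given as a description with no test. The mice carried Cx3cr1-cre/ERT2 and NuTRAP, a floxed construct that, after tamoxifen, tags ribosomes with EGFP in Cx3cr1-expressing cells, in brain mainly microglia but also border macrophages. In the control animals as in the treated ones both alleles were present and tamoxifen had been given, for 5 days from about 3 months of age. From 3 to 4 weeks later, 5 animals received lipopolysaccharide (LPS, a bacterial cell wall component) by intraperitoneal injection at 5 mg/kg and 4 received PBS, and brain was taken 24 h after the injection. A hemisphere was homogenised, some lysate was set aside as input, and EGFP-tagged ribosomes were captured with an anti-GFP antibody (translating ribosome affinity purification, TRAP) to give the positive fraction. RNAseq libraries of both fractions gave Input PBS (n = 4), Input LPS (n = 4 after the nearly empty library of animal 271 was left out), Positive PBS (n = 4) and Positive LPS (n = 5), with 2 female and 2 male PBS animals and 4 female and 1 male LPS animals.

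G protein-coupled receptors span the membrane, bind a ligand outside the cell and pass the signal to heterotrimeric G proteins and arrestins inside it. Microglia, the resident macrophages of the brain, use them to sense metabolites, lipids, acid and fragments of microbes or damaged cells, and to steer movement towards a source. Gpr84 is activated by medium-chain fatty acids and their hydroxylated forms, and Hcar2 by beta-hydroxybutyrate and niacin. Gpr183 binds oxysterols made from 25-hydroxycholesterol, Ptafr binds platelet-activating factor, Gpr18 is a lipid receptor whose ligands are debated, and Gpr65 and Gpr132 belong to the proton-sensing family. Fpr1 and Fpr2 are chemoattractant receptors for formylated peptides, and Fpr2 also binds serum amyloid A and lipid mediators. Neutrophils and monocytes are known for high levels of Fpr1, Fpr2 and Hcar2, and lymphocytes for Gpr18 and Gpr183.

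The 250 bases before the annotated start are shown for 3 genes, taken from RefSeq on build GRCm38.p6 (the mouse build that the deposited mm10 coordinates use) and written 5′ to 3′ on the strand of the gene. Gpr84 is shown as the most abundant receptor, Gpr18 as the gene with the widest span of levels, and Gpr65 as a gene whose levels after LPS and after PBS stood in nearly the same ratio in both fractions. They lie on the minus strand at chr15:103310439-103310688 for Gpr84 and chr14:121915889-121916138 for Gpr18, and on the plus strand at chr12:98268385-98268634 for Gpr65, with motif matches in capitals.
Gpr84: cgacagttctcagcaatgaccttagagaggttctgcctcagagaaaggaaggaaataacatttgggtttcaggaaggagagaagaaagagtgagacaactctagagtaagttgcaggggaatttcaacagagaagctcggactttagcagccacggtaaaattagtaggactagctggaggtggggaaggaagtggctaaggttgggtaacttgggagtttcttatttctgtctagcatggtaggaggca
Gpr18: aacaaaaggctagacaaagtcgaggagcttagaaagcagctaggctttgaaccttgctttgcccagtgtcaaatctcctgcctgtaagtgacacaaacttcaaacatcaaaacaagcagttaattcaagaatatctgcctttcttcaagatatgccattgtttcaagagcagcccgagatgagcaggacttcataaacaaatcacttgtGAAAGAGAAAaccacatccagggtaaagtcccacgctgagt
Gpr65: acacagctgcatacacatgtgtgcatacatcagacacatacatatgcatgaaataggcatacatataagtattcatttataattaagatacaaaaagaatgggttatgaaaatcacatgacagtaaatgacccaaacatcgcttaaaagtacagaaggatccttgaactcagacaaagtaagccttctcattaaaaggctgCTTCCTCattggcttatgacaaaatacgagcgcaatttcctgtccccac

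Both strands of these windows were searched for AP-1 (TGANTCA), PU.1 (GAGGAAG), the interferon-stimulated response element (GAAA, then any 2 bases, then GAAA) and the NF-kB motif, in the 8 receptor genes with a RefSeq promoter entry. Gpr18 held an interferon-stimulated response element from 41 to 32 bases before the start, a motif found in 2.98% of the 32851 promoter windows. Gpr65 held a PU.1 match on the opposite strand from 49 to 43 bases before the start (10.6% of all windows), and Gpr132 an NF-kB match from 88 to 79 bases before the start (7.25%). AP-1 was found in none of the 8 windows and in 6.75% of all windows. Gpr84, Gpr183, Ptafr, Fpr1 and Fpr2 held no match to the 4 motifs, which says only that these letters are not in the 250 bases. No match overlapped another.

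The 17 libraries used held from 22968939 to 35123345 counts, and the library left out held 1252. At this depth 3 counts, taken as the limit of detection, equal 2.27 to 3.92 normalised counts, and such limits cover counting error only. The labelled cell type was checked first with 12 microglial markers, all higher in the positive fraction than in input, with a median log2 difference of 4.25 in PBS animals and 4.03 in LPS animals. Of 7 border macrophage markers, all 7 were enriched as well (median 4.02 in PBS and 3.25 in LPS animals), so both kinds of macrophage marker were enriched. In PBS animals the median was 1.46 for 8 endothelial and -0.08 for 7 neuron markers. It was -0.25 for 7 astrocyte and -2.19 for 6 oligodendrocyte markers. RNA of other cells was thus also present in the positive fraction, with neuron markers near their input level. The positive fraction is bulk RNA on tagged ribosomes, in which fewer cells of a type and less RNA per cell cannot be told apart.

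Unless stated otherwise, levels are normalised counts, that is deposited counts divided by a size factor per library, and a gene was called when edgeR's adjusted p (Benjamini-Hochberg) was under 0.05 and the log2 fold change exceeded 0.322 in size. Of the 9 receptors, 8 passed the filter of over 20 normalised counts in every library of at least 1 group. Gpr132 did not pass. Gpr18 passed only through Positive LPS, and Fpr2 only through the LPS groups, so both had to differ between groups once they were in the tested set. Ptafr passed only through Positive PBS and Positive LPS, so the same limit holds for its comparison of fractions.

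**Figure D1:**
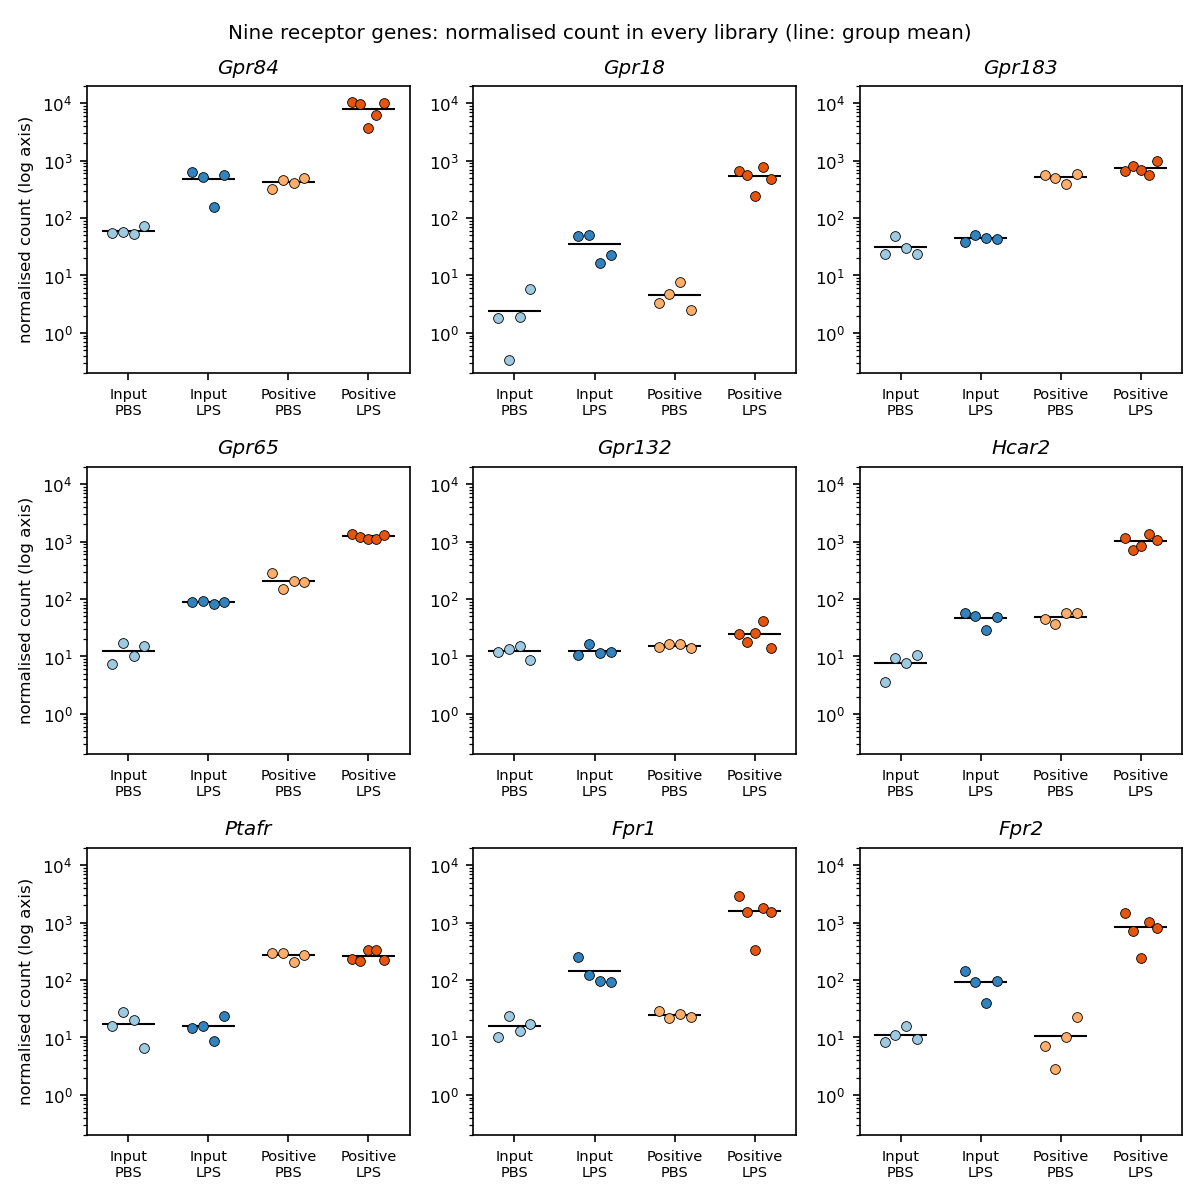
Normalised counts of the 9 receptor genes in every library (log axis), by fraction and treatment, with a line at the group mean and n of 4, 4, 4 and 5. Gpr84 spans from 52.2 in Input PBS to 10636 in Positive LPS, whereas Ptafr has about the same levels after PBS and LPS in each fraction and Gpr132 stays at or under 42 in every library.

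Between receptors, levels were compared per kilobase of exon. In Positive PBS the order of the levels was Gpr84, with 271 ± 51.5 normalised counts per kilobase (SD, n = 4), Gpr183 (187 ± 29.4), Ptafr (149 ± 23), Gpr65 (101 ± 26), Hcar2 (25.3 ± 5.14), Fpr1 (19 ± 2.56), Fpr2 (8.36 ± 6.67), Gpr132 (6.3 ± 0.493) and Gpr18 (3.51 ± 1.79). Neighbours whose mean ± SD overlapped were Gpr183 and Ptafr, Ptafr and Gpr65, Hcar2 and Fpr1, and Fpr2 and Gpr132. In Positive LPS Gpr84 was again at the top, at 5183 ± 1925 per kilobase (n = 5), followed by Fpr1 at 1226 ± 707 and Fpr2 at 656 ± 342. Next came Gpr65 (596 ± 57.6), Hcar2 (533 ± 133) and Gpr18 (413 ± 155), then Gpr183 (273 ± 59.5), Ptafr (146 ± 33.2) and Gpr132 (10.2 ± 4.41). From Fpr1 down to Gpr183 each neighbour overlapped the next within 1 SD. Gpr183 and Ptafr, which came right after Gpr84 in the PBS order, came after all of Fpr1, Fpr2, Gpr65, Hcar2 and Gpr18 in the LPS order.

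Among the metabolite receptors, Gpr84 (chr15:103308235-103310438, minus strand) was in every group the most abundant of the 9 per kilobase. Its level in Input PBS was 55.6, 56.7, 52.2 and 72.4 normalised counts in animals 268, 272, 273 and 506. In Input LPS it was 641, 529, 156 and 569.5 in animals 266, 267, 270 and 507. All 4 Input LPS libraries lay above all 4 Input PBS libraries, and animal 270 was the lowest by a wide margin. In Positive PBS the level was 316, 456, 405 and 503, and in Positive LPS 10636, 9659, 3650.4, 6252 and 10000.5 in animals 266, 267, 270, 271 and 507. The positive libraries also did not overlap between treatments, and the level in Input LPS was of the size of that in Positive PBS. Gpr84 rose after LPS in input 7.99-fold (log2 3.00, SE 0.40, adjusted p = 4.62e-05, edgeR). In PBS animals it was enriched 7.08-fold in the positive fraction over input (log2 2.82, SE 0.40, adjusted p = 1.58e-05).

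Hcar2 (chr5:123863570-123865516, minus strand) was at a lower level, with its lowest values in Input PBS and its highest in Positive LPS, as for Gpr84. Input PBS held 3.64, 9.28, 7.59 and 10.5 normalised counts in animals 268, 272, 273 and 506, and Input LPS 57.7, 51.5, 29.5 and 48.1 in animals 266, 267, 270 and 507. Positive PBS held 45.7, 36.2, 56.1 and 57.3, and Positive LPS 1138, 714, 849, 1372 and 1067 in animals 266, 267, 270, 271 and 507. Within each fraction the treatments did not overlap. After LPS, Hcar2 rose 5.99-fold in input (log2 2.58, SE 0.32, adjusted p = 2.41e-05, edgeR). Its enrichment in the positive fraction of PBS animals was 6.21-fold (log2 2.64, SE 0.33, adjusted p = 3.74e-06), close to that of Gpr84.

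Of the lipid receptors, Gpr18 and Gpr183 are close neighbours on chromosome 14, at chr14:121911434-121915774 and chr14:121952331-121965193, both on the minus strand and both inside the span of Ubac2, which is read from the plus strand. Their levels had little in common. Gpr18 held 1.82, 0.335, 1.9 and 5.72 normalised counts in Input PBS (animals 268, 272, 273 and 506) and 3.27, 4.76, 7.83 and 2.55 in Positive PBS, at or near the limit of detection in both fractions, so no enrichment is given for PBS animals. In Input LPS it held 49.7, 51.7, 16.4 and 22.7 in animals 266, 267, 270 and 507, and in Positive LPS 650.1, 558, 244, 783 and 471 in animals 266, 267, 270, 271 and 507. Every LPS library thus lay above every PBS library of its fraction. The PBS groups rest on 10 counts in input and 16 in the positive fraction, and the ratio of LPS to PBS counts, scaled for depth, was 14.2 in input (exact 95% interval 7.55 to 30.3, counting error only) and 116 in the positive fraction (71.3 to 203). The edgeR log2 fold change in input was 3.79 (SE 0.62), given without a test because Gpr18 entered the tested set only through Positive LPS. Ubac2 itself was at 1104 ± 116 in Input PBS and 1063 ± 43.2 in Input LPS (SD, n = 4 each), while positive libraries averaged 1094 after PBS and 1356 after LPS. The libraries and their alignment kept strand.

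Gpr183, which guides cells along oxysterol gradients, differed little between injections. Input PBS libraries held 23.7, 47.9, 30.4 and 23.8 normalised counts and Input LPS libraries 37.6, 51.5, 44.3 and 43.7. Positive PBS libraries held 561, 500.4, 400.2 and 576 and Positive LPS libraries 671, 797, 695, 562 and 992. The treatments overlapped in both fractions. In input the log2 difference was 0.51 (SE 0.24, adjusted p = 0.171, edgeR), with 2 SE reaching from 0.03 to 0.98. Without Input PBS animal 272, the highest of its group, the difference was 0.77 and was called. Gpr183 was enriched 16.3-fold in the positive fraction of PBS animals (log2 4.03, SE 0.22, adjusted p = 5.68e-11).

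Ptafr (chr4:132564067-132580866, plus strand) had a like pattern. It held 15.8, 27.4, 19.9 and 6.67 normalised counts in Input PBS and 14.4, 16, 8.52 and 23.8 in Input LPS. In the positive fraction it held 298, 296, 209 and 279 after PBS and 230.2, 215, 335, 329 and 222 after LPS. The treatments overlapped in both fractions. The log2 difference in input was -0.17 (SE 0.36, adjusted p = 0.802, edgeR), with 2 SE reaching from -0.90 to 0.55. A change inside that range remained possible at these counts. The sign turned when either Input LPS animal 270 (0.04) or Input PBS animal 272 (0.13) was left out. Its enrichment in PBS animals was 15.5-fold (log2 3.95, SE 0.32). It is given without a test, because Ptafr entered the tested set only through the positive fraction.

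Gpr132 (chr12:112850876-112860916, minus strand), a relative of Gpr65 that also answers to oxidised fatty acids, was low throughout. It held 11.8, 13.4, 15.2 and 8.57 normalised counts in Input PBS and 10.5, 16.5, 11.5 and 12.1 in Input LPS. Positive PBS held 14.7, 16.2, 16.6 and 14, and Positive LPS 24.5, 17.6, 26, 42 and 14.1. The fractions overlapped in LPS animals, and the treatments overlapped in both fractions. With no filter on low counts the edgeR log2 difference after LPS in input was 0.04 (SE 0.36, adjusted p = 0.996) and the enrichment in PBS animals was 0.35 (SE 0.36, adjusted p = 0.503). As a description with no test, the log2 difference after LPS in the positive fraction was 0.66 (SE 0.33), and that between positive fraction and input in LPS animals, which was called without the filter, was 0.97 (SE 0.33).

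The proton sensor Gpr65 (chr12:98268635-98276722, plus strand) had the tightest libraries of the set after LPS. In Input PBS it held 7.29, 17.3, 10.4 and 15.2 normalised counts and in Input LPS 89.1, 92.8, 81.2 and 87.6. In Positive PBS it held 282, 152, 205 and 199 and in Positive LPS 1381, 1230.0, 1102, 1134 and 1322. The treatments did not overlap in either fraction, and the 5 Positive LPS animals had a mean of 1234 with an SD of 119. Gpr65 rose 6.95-fold after LPS in input (log2 2.80, SE 0.23, adjusted p = 2.14e-07, edgeR). In PBS animals it was enriched 16.6-fold in the positive fraction (log2 4.05, SE 0.22, adjusted p = 4.49e-11).

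The chemoattractant receptors Fpr1 (chr17:17876471-17883939, minus strand) and Fpr2 (chr17:17887824-17893952, plus strand) are neighbouring paralogs. Their deposited counts were fractional in 12 and 11 of the 17 libraries, but 81.6% of all nonzero deposited counts were not whole. Fractional counts thus do not mark out these genes. Whether reads were shared out between the paralogs was not tested, so the split between them is uncertain. Fpr1 held 10.1, 23.7, 12.8 and 17.1 normalised counts in Input PBS and 257, 125, 97.2 and 92.3 in Input LPS. In the positive fraction it held 29.4, 21.9, 26.1 and 22.9 after PBS and 2959, 1508, 335, 1801 and 1508 after LPS. Each LPS library lay above every PBS library of its fraction, and animal 270 of Positive LPS was far below the other 4. Fpr2 held 8.2, 11, 16.1 and 9.53 in Input PBS and 143, 93.3, 39.3 and 95.5 in Input LPS. In Positive PBS it held 7.08, 2.86, 10.4 and 22.9 and in Positive LPS 1461, 718, 245, 1016 and 814. Here too the treatments did not overlap, and animal 270 was the lowest in both fractions. In input, Fpr1 rose 8.89-fold (log2 3.15, SE 0.56, adjusted p = 0.000761, edgeR). For Fpr2, which entered the tested set only through the LPS groups, the log2 difference in input is given without a test, at 3.03 (SE 0.56). In PBS animals neither passed the test for enrichment, with a log2 difference between positive fraction and input of 0.65 for Fpr1 (SE 0.67, adjusted p = 0.448) and -0.15 for Fpr2 (SE 0.76, adjusted p = 0.883). The range of 2 SE was -0.70 to 2.00 for Fpr1 and -1.66 to 1.36 for Fpr2. The sign for Fpr2 changed without Positive PBS animal 268 or 272 or Input PBS animal 273.

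The comparison of fractions in PBS animals asked which receptor RNAs were enriched on tagged ribosomes at rest. Gpr183, Gpr65 and Ptafr were enriched 15.5-fold to 16.6-fold, near the medians of both the microglial (log2 4.25) and the border macrophage markers (log2 4.02). These values do not tell the 2 kinds of macrophage apart. Gpr84 and Hcar2 were enriched 7.08-fold and 6.21-fold, and Fpr1 and Fpr2 were not called. Higher in the positive fraction were thus 5 of the 8 tested, where 21.1% of all 14796 tested genes were called higher. Of these 5, Ptafr had entered the tested set only through the positive fraction, so the count is not support. Within animals the log2 ratio of positive fraction to input, on a scale of count + 1, was 4.02 ± 0.59 for Gpr183, 3.99 ± 0.86 for Gpr65 and 4.02 ± 0.87 for Ptafr (SD, n = 4 animals). It was 2.79 ± 0.22 for Gpr84 and 2.56 ± 0.62 for Hcar2, and 0.68 ± 0.68 for Fpr1 and -0.30 ± 1.17 for Fpr2. Each of the 4 PBS animals had all of Gpr84, Gpr183, Gpr65, Hcar2 and Ptafr higher in its positive library than in its input library. The share of all tested genes higher in each of these animals was not counted, so this is a description only. With animal as a replicate block, the same 5 genes were called.

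In LPS animals the same comparison is a description, since Positive LPS entered the choice of the genes. All 8 tested receptors were called higher in the positive fraction, beside 27.7% of all tested genes, and nothing is read from that count. The within-animal log2 ratio was 4.23 ± 0.22 for Gpr84 (range 4.05 to 4.54, n = 4 animals) against a range of 2.49 to 2.98 in PBS animals. For Hcar2 it was 4.32 ± 0.43 (3.77 to 4.80) against 1.85 to 3.33, for Fpr1 3.22 ± 0.99 (1.78 to 4.02) against -0.11 to 1.45, and for Fpr2 2.99 ± 0.31 (2.61 to 3.35) against -1.63 to 1.19. The ratio of these 4 genes was higher in every LPS animal than in any PBS animal. How many of all tested genes separate in this way was not counted, so nothing is read from it. For Fpr2 the PBS ratios rest on few counts, down to 3 in Positive PBS animal 272. For Gpr183 (4.12 ± 0.25), Gpr65 (3.83 ± 0.11) and Ptafr (3.97 ± 0.84) the ratios of LPS and PBS animals overlapped. Gpr18 had a ratio of 3.81 ± 0.38 in LPS animals.

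**Figure D2:**
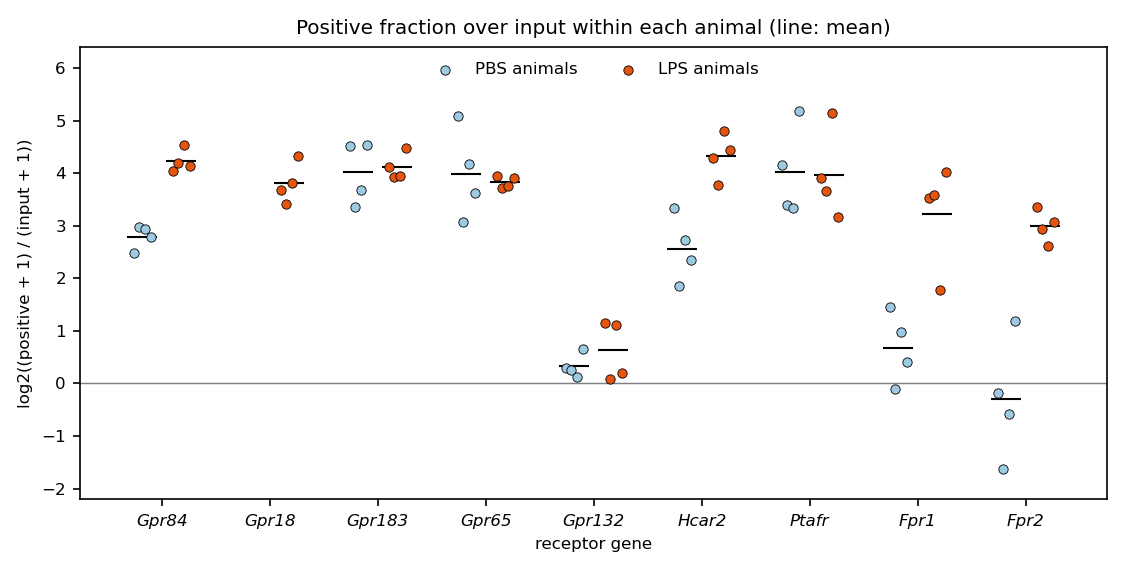
The log2 ratio of positive fraction to input (normalised count + 1) within each animal, for PBS animals (blue, n = 4) and LPS animals (orange, n = 4), with a line at the mean. Gpr183, Gpr65 and Ptafr lie around 4 under both treatments, and Gpr84, Hcar2, Fpr1 and Fpr2 are higher in each LPS animal than in any PBS animal. The share of all genes that separate so was not counted, and Fpr2 in PBS animals rests on few counts. Gpr18 in PBS animals is not plotted because its counts were at or near the limit of detection.

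The LPS effect in input, measured on libraries that did not choose the genes but came from the same animals, was called higher for 6 of the 8 tested receptors, beside 7.16% of all tested genes. Of these 6, Gpr18 and Fpr2 had entered the tested set only through groups given LPS, so the count is not support. The other 4 were Gpr84, Gpr65, Hcar2 and Fpr1, with log2 fold changes from 2.58 to 3.15. Gpr183 and Ptafr did not pass. Without animals 506 and 507, which are numbered apart from the other animals and hold 1 animal of each treatment, the same number of 6 was called, and 6 were called under each alternative that kept all animals.

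The LPS effect in the positive fraction had chosen the set and is given without a test. Its edgeR log2 fold change was 6.85 for Gpr18 (SE 0.51), 6.37 for Fpr2 (SE 0.58), 6.01 for Fpr1 (SE 0.55), 4.40 for Hcar2 (SE 0.24), 4.26 for Gpr84 (SE 0.37), 2.56 for Gpr65 (SE 0.17), 0.55 for Gpr183 (SE 0.18) and -0.02 for Ptafr (SE 0.25). Called higher were 7 of 8, beside 19.0% of all tested genes, and nothing is read from that count. Gpr183, the call nearest to the thresholds, was lost without Positive PBS animal 273 (0.45), without Positive LPS animal 507 (0.43), without animals 506 and 507 (0.48) and on the deposited log2 values (0.58). Ptafr, the only tested receptor not called, was not close to a call, with a log2 fold change of -0.02. Its 2 SE reached from -0.52 to 0.47, and its sign changed between alternatives (-0.13 to 0.05).

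**Figure D3:**
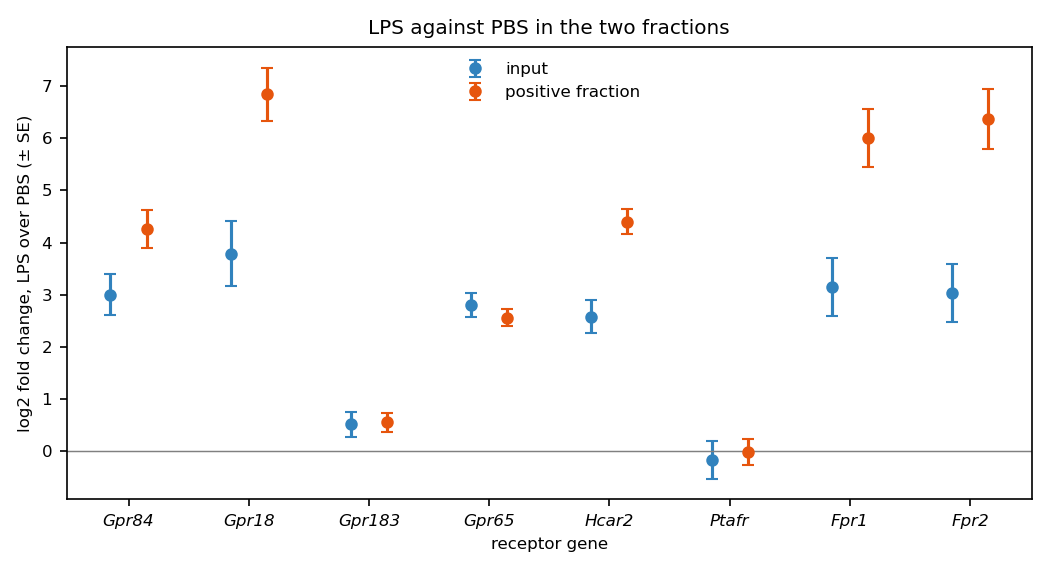
The edgeR log2 fold change of LPS over PBS (± SE) for the 8 tested receptors in input (blue) and in the positive fraction (orange). Gpr65 lies at 2.80 in input and 2.56 in the positive fraction, while Gpr84, Gpr18, Hcar2, Fpr1 and Fpr2 lie higher in the positive fraction than in input. Gpr183 lies at 0.51 and 0.55, and Ptafr at -0.17 and -0.02.

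The LPS effect in the positive fraction minus that in input shares the Positive LPS libraries and is likewise a description. On the log2 scale it was 3.35 for Fpr2 (SE 0.87), 3.06 for Gpr18 (SE 1.09), 2.86 for Fpr1 (SE 0.81), 1.82 for Hcar2 (SE 0.44) and 1.26 for Gpr84 (SE 0.52). It was 0.15 for Ptafr (SE 0.44), 0.04 for Gpr183 (SE 0.31) and -0.24 for Gpr65 (SE 0.27). For Gpr65 2 SE reached from -0.79 to 0.31, and a difference inside that range remained possible. Called were 3 of 8 (Fpr2, Fpr1 and Hcar2), beside 5.45% of all tested genes, and nothing is read from that count either. With animal as a replicate block, which needs both libraries of an animal and so covers 8 animals, 5 were called, Gpr84 (1.40, SE 0.14) and Gpr18 (2.87, SE 0.80) in addition. Without animals 506 and 507 none was called, while the differences were 4.12 for Fpr2, 2.64 for Fpr1 and 1.73 for Hcar2. Leaving out single libraries gave between 0 and 4. None was called without Input PBS animal 272, and 1 without Positive PBS animal 268 or 272 or Input PBS animal 273 or 506.

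Animals given LPS differed from each other, and not alike for all receptors. Animal 270 had the lowest Positive LPS level of Gpr84, Gpr18, Gpr65, Fpr1 and Fpr2, and the lowest Input LPS level of Gpr84, Gpr18, Gpr65, Hcar2, Ptafr and Fpr2. Relative to the median of the other LPS libraries of the fraction, its Gpr84 level was 2.69-fold lower in the positive fraction and 3.64-fold lower in input. Gpr18 was 2.47-fold lower in the positive fraction and 2.91-fold lower in input, and Fpr2 3.72-fold and 2.4-fold lower. Fpr1 was 4.93-fold lower in the positive fraction and 1.28-fold lower in input. By contrast its Gpr65 level was 1.16-fold lower in the positive fraction and 1.1-fold lower in input, its Gpr183 level was the middle of the 5 in the positive fraction, and its Ptafr level was the highest of the 5. Animal 271, for which no input value was used, had the highest Gpr18, Hcar2 and Gpr132 of the Positive LPS libraries.

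**Figure D4:**
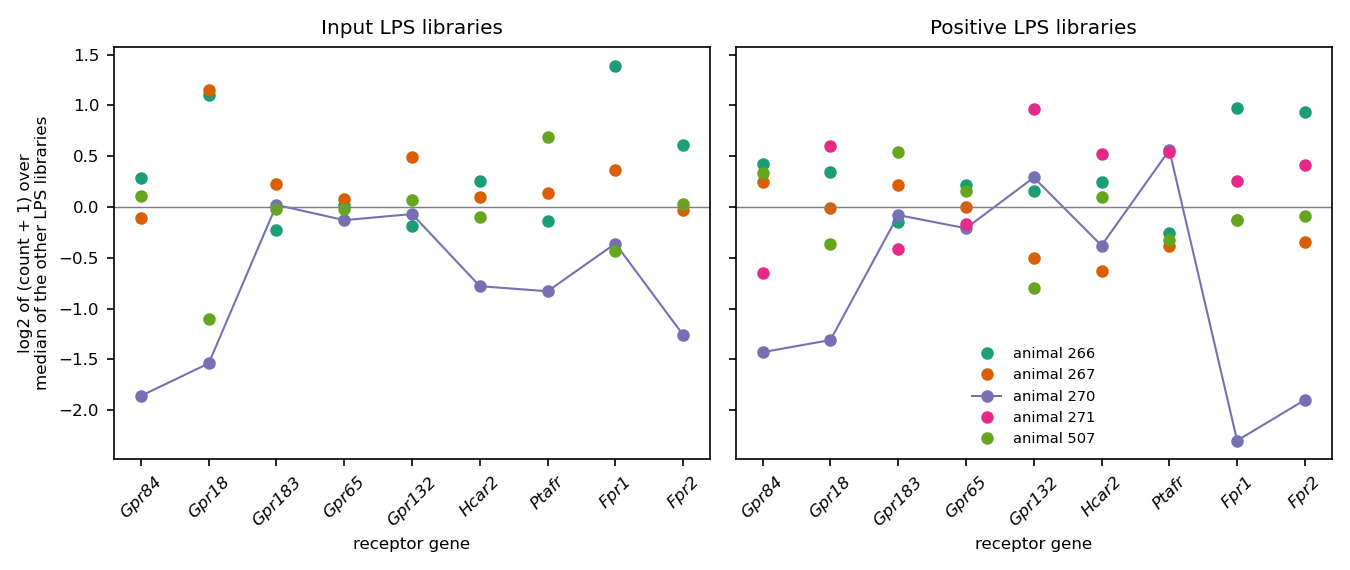
For each LPS library, the log2 ratio of its count + 1 to the median of the other LPS libraries of the same fraction, for the 9 receptors in input (left, 4 animals) and in the positive fraction (right, 5 animals). The line joins animal 270, which lies at -1.86 in input and -1.43 in the positive fraction for Gpr84, at -2.30 in the positive fraction for Fpr1, and between -0.21 and 0.02 for Gpr183 and Gpr65 over both fractions.

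Markers of other blood cells were read beside these values, since several of the receptors are also known from such cells. Of 16 neutrophil markers, Ly6g and Elane were listed at 0 in every LPS library of both fractions. The summed level of the 16 was 826 to 1271 in Input PBS and 1223 to 2254 in Input LPS, and 2073 to 2445 in Positive PBS and 1359 to 2452 in Positive LPS. Csf3r made up most of the sum in the positive fraction after PBS, with a mean of 1828 in Positive PBS and 973 in Positive LPS. Called higher after LPS were 6 of the 9 tested neutrophil markers in input, beside 7.16% of all tested genes. In the positive fraction 5 of 9 were called higher and 1 lower, beside 19.0% and 14.9%. Ngp, Mmp8 and Retnlg had entered the tested set only through groups given LPS, so nothing is read from these counts. S100a8 had a mean of 313 in Input LPS and 415 in Positive LPS, against 77.8 in Input PBS and 15.9 in Positive PBS. S100a9 had a mean of 396 in Input LPS and 71.7 in Positive LPS, against 107 and 18.5 after PBS. In animal 270 the neutrophil sum was the lowest of the LPS libraries in both fractions, at 1223 in input and 1359 in the positive fraction. The part of neutrophils in the levels of Fpr1, Fpr2 and Hcar2 was not tested.

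The sum of 11 monocyte markers was 4289 to 5162 in Input PBS, 3842 to 4834 in Input LPS, 5392 to 7686 in Positive PBS and 3831 to 5914 in Positive LPS, with Ccr2, the receptor that brings monocytes into tissue, at a mean of 43.6 in Positive PBS and 8.45 in Positive LPS. For 16 lymphocyte markers the sum was 119.8 to 158 in Input PBS and 119 to 161 in Input LPS. In the positive fraction it was 189.6 to 259 after PBS and 348 to 451 after LPS, most of it from Cd79b, at a mean of 119 and 304. Of these lymphocyte markers Cd3e, Cd3g, Cd2, Ms4a1 and Ncr1 held at most 3 counts in each Positive LPS library. The part of these cells in the levels of Gpr18 and Gpr183 was not tested.

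Other receptors for lipids, metabolites and acid moved both ways. This list and those that follow were chosen with earlier results of these data known. The genes named are the most changed of each list, so their p-values are no independent evidence. Of 48 such genes outside the set, 26 were tested, and in the positive fraction 6 were called higher and 8 lower after LPS, beside 19.0% higher and 14.9% lower of all tested genes, with a median log2 fold change of -0.22 (0.01 over all genes). Among those that averaged 100 or more normalised counts, Gpr35, a receptor for tryptophan metabolites, rose from 87.8 ± 9.2 (SD, n = 4) to 273 ± 55.6 (n = 5), which is 1.63 on the log2 scale (SE 0.17, adjusted p = 6.38e-07, edgeR). The cannabinoid receptor Cnr2 rose by 0.88 (SE 0.26, adjusted p = 0.0113) and the lysophosphatidic acid receptor Lpar6 by 0.76 (SE 0.20, adjusted p = 0.00496). The lysophosphatidylserine receptor Gpr34, known from resting microglia, fell from 3364 ± 911 to 303 ± 171 (log2 -3.47, SE 0.33, adjusted p = 2.99e-07). The leukotriene receptor Cysltr1 fell by 1.29 on the log2 scale (SE 0.32, adjusted p = 0.00353), and the sphingosine-1-phosphate receptor S1pr1 fell by 0.92 (SE 0.08, adjusted p = 1.71e-07). In input 2 of the 26 were called higher and 6 lower (7.16% and 5.26% of all tested genes), with a median of -0.13 (0.00 over all genes). Of the more abundant ones, Gpr35 rose by 0.83 (SE 0.19, adjusted p = 0.00723), a call lost without animals 506 and 507 (0.82). Gpr34 fell by 2.91 (SE 0.43, adjusted p = 0.000118), Lpar1, known from oligodendrocytes, fell by 1.31 (SE 0.13, adjusted p = 1.39e-06), and S1pr1 fell by 0.73 (SE 0.09, adjusted p = 1.8e-05).

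Genes that make, break down or serve as ligands of these receptors numbered 25, of which 23 were tested. The same limit holds for their p-values. In the positive fraction 9 were called higher and 2 lower (median log2 0.31), beside 19.0% and 14.9% of all tested genes. In input also 9 were called higher and 2 lower (median 0.04), beside 7.16% and 5.26%. Saa3, a serum amyloid A of the kind that Fpr2 binds, rose from 639 ± 251 (SD, n = 4) to 51895 ± 19047 (n = 5) in the positive fraction (log2 6.35, SE 0.44, adjusted p = 5.27e-09, edgeR), and by 3.64 in input (SE 0.39, adjusted p = 4.48e-06). Ch25h, which makes the 25-hydroxycholesterol from which Gpr183 ligands derive, rose from 62.1 ± 13.3 to 719 ± 366 in the positive fraction (3.54, SE 0.39, adjusted p = 1.58e-06) and from 42.5 ± 15.5 to 223 ± 72 in input (2.38, SE 0.40, adjusted p = 0.000444). Alox5, the first enzyme of leukotriene synthesis, rose by 1.81 in the positive fraction (SE 0.23, adjusted p = 5.89e-06) and by 1.83 in input (SE 0.29, adjusted p = 0.00026). Cyp27a1, a sterol hydroxylase, fell by 0.87 in the positive fraction (SE 0.19, adjusted p = 0.00133). Pafah1b3, a subunit of an enzyme that cleaves platelet-activating factor, fell by 0.71 in the positive fraction (SE 0.15, adjusted p = 0.000839) and by 0.57 in input (SE 0.16, adjusted p = 0.0199), and Pla2g7, the secreted enzyme of this kind, fell by 0.40 in input (SE 0.10, adjusted p = 0.0142). The input calls of both were lost in some alternatives, among them without animals 506 and 507 (-0.60 and -0.39), Pafah1b3 also without Input LPS animal 266 or Input PBS animal 272, and Pla2g7 also without Input LPS animal 266 or 507 or Input PBS animal 273.

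On the inner side of the membrane, all 47 genes for G proteins, receptor kinases, arrestins, regulators of G protein signalling and effectors were tested. Their p-values have the same limit. In the positive fraction 12 were called higher and 10 lower after LPS (median log2 -0.07), beside 19.0% and 14.9% of all tested genes. In input 4 were called higher and 4 lower (median -0.02), beside 7.16% and 5.26%. Pik3r6 and Pik3r5, the regulatory subunits of the phosphoinositide 3-kinase that G protein beta-gamma subunits activate, rose in the positive fraction from 227 ± 13.8 to 935 ± 292 (2.04, SE 0.17, adjusted p = 3.88e-08, edgeR) and from 1150.1 ± 97.9 to 4454 ± 1049.8 (1.95, SE 0.20, adjusted p = 4.31e-07). In input Pik3r5 rose by 1.30 (SE 0.22, adjusted p = 0.00042), and the catalytic subunit Pik3cg by 0.97 (SE 0.15, adjusted p = 0.000223). Rgs19 rose by 0.84 in the positive fraction (SE 0.14, adjusted p = 9.18e-05). Rgs10, a regulator that shortens G protein signals and is abundant in microglia, fell from 7602 ± 579 to 2565 ± 491 in the positive fraction (log2 -1.57, SE 0.13, adjusted p = 7.09e-08), and Rgs2 fell by 0.81 (SE 0.13, adjusted p = 9.43e-05). Plcb2, a phospholipase C, fell by 0.80 in the positive fraction (SE 0.25, adjusted p = 0.0181), a call lost without Positive PBS animal 272 (-0.69) or 506 (-0.73). Adcy7, an adenylyl cyclase, rose by 0.50 in input (SE 0.14, adjusted p = 0.0194), while Gna12 fell by 0.70 (SE 0.10, adjusted p = 7.83e-05), Rgs10 by 0.54 (SE 0.15, adjusted p = 0.0181) and Rgs4 by 0.53 (SE 0.08, adjusted p = 0.000276). The input call of Adcy7 was lost without animals 506 and 507 (0.40) and without any of Input PBS animals 268 and 273 and Input LPS animals 270 and 507. That of Rgs10 in input was lost without animals 506 and 507 (-0.57), Input LPS animal 266 or Input PBS animal 272.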

How the data were processed

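Brain RNAseq libraries of Cx3cr1-NuTRAP mice, input and TRAP-positive fraction, were grouped by the labelled fraction and treatment. The authors made stranded libraries, trimmed and aligned the reads to mm10, with strand, in Strand NGS and deposited an estimated count per gene, of which 81.6% of the nonzero values were not whole. They also deposited log2 values scaled with DESeq (named in the submitters' processing notes), which served as an alternative. The members and gene lists were chosen with earlier results of these data known.

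Estimated counts were rounded. Size factors (medians of ratios over 15871 genes) ranged from 0.766 to 1.32 over the 17 libraries. The filter and fold follow the study's methods, and 14796 genes were tested. One mean per group was fitted with edgeR 4.0.16 (quasi-likelihood, 13 residual degrees of freedom, R 4.3.3), in place of the study's analysis of variance, with 5 contrasts and adjustment over all tested genes. The fit was tested on simulated data. Exon lengths came from GENCODE on GRCm38. Named were all 9 members and, from each other list, the called genes averaging 100 or more normalised counts, up to 3 most raised and 3 most lowered by LPS per fraction, and the 5 genes most correlated with Gpr84 and with Gpr18. Each animal gave both of its libraries, and their deviations from the group means correlated in every animal (r from 0.162 to 0.519 over 8 animals), so an animal block was an alternative, beside TMM, no filter, all 18 libraries, only the libraries compared, sex, leaving out animals 506 and 507, limma 3.58.1 on the deposited log2 values, DESeq2 1.42.0, and leaving out each library. P-values of the main fit measure the spread between libraries within groups, and that fit takes both libraries of an animal as independent. A lymphocyte marker is not reported here.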

Additional observations from a re-analysis of the deposited data

Results flagged for a closer look

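Of the 9 receptors, 3 had an LPS effect that differed between fractions by the interaction term of the edgeR fit, each with a higher effect in the positive fraction than in input. The difference was 1.82 on the log2 scale for Hcar2 (SE 0.44), 2.86 for Fpr1 (SE 0.81) and 3.35 for Fpr2 (SE 0.87). The Positive LPS libraries had entered the choice of these genes, so the values are no independent evidence. Fpr2 had also entered the tested set only through the LPS groups. The number of receptors called fell to 0 without Input PBS animal 272, and likewise without the animals numbered apart from the others.

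Across the 36 sets of values (9 receptors in 4 groups), no library stood apart from its group by Dixon's test at the 95% level, which by chance marks about 1 in 20 groups. Animal 270, though lowest for several receptors, was not marked by this test in groups of 4 and 5. The test used unlogged normalised counts, whereas the LPS animals were compared above on a log2 scale. It therefore does not clear animal 270 on that scale.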

How the results depend on the processing

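Of 40 member results (8 tested receptors, 5 contrasts), 28 kept their direction and call under every alternative run, and 12 did not. The count of genes called for the LPS effect in input fell from 1839 to 1071 without animals 506 and 507, and that for the LPS effect in positive minus input from 1018 to 323. With animal as a replicate block the latter was 1915, and 5 members were called in place of 3, against 0 without animals 506 and 507. The block changed no other member call. Leaving out single libraries gave 0 to 4 members for this difference, 0 without Input PBS 272 and 1 without Positive PBS 268, Positive PBS 272, Input PBS 273 or Input PBS 506. The Fpr1 difference lost its call in 12 of 25 alternatives, Fpr2 in 5 and Hcar2 in 3. The cause was not tested.

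The sign changed only for small differences that were not called. For Ptafr in the positive fraction it was 0.01 with all 18 libraries and on the deposited log2 values, 0.05 without animals 506 and 507 and between -0.13 and 0.05 over all alternatives. Leaving out single libraries, Ptafr in input lay between -0.47 and 0.13, the Ptafr difference between fractions between -0.15 and 0.44, the Gpr183 difference between -0.22 and 0.15, and the Fpr2 enrichment in PBS animals between -0.83 and 0.21. The median of the signalling genes in input was 0.01 on the deposited log2 values, against -0.02. Depth limited Gpr18 and Fpr2 after PBS and Gpr132 throughout.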

Other observations

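The genes most like Gpr84 over the 17 libraries, by Pearson's r of log2(normalised count + 1), were Ms4a6c (0.993), Igsf6 (0.990), Lilrb3 (0.988), Lgals3bp (0.987) and Clec4a1 (0.987). Those most like Gpr18 were Ccl5 (0.983), Il1rn (0.981), Saa3 (0.979), Msr1 (0.974) and Clec4d (0.972). Among the receptors themselves, Gpr84 and Hcar2 had r = 0.98, Gpr183 and Ptafr 0.97, Fpr1 and Fpr2 0.97, Fpr1 and Gpr18 0.97, whereas Fpr2 and Ptafr had 0.31. These are descriptions over libraries that share 4 groups and 9 animals, so r mostly follows the differences between groups.

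In PBS animals, 23 of the 47 signalling genes were called enriched in the positive fraction over input and 6 depleted, beside 21.1% and 18.8% of all tested genes, and in LPS animals 24 enriched and 9 depleted, beside 27.7% and 25.8%. Of the 48 other lipid, metabolite and acid receptors, 9 of 26 tested were called higher and 3 lower in PBS animals.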
